A study of Mus musculus with 6 samples.

Results

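Most of the genes described here encode enzymes that attach ubiquitin to proteins, subunits that pick the proteins to be marked, or enzymes that take ubiquitin off again. They were chosen by symbol: Usp or Cul followed by a digit, or a symbol that starts with Ube, Ubr, Ubx, Rnf, Trim, Fbx, Herc, Hecw, Nedd4, March, Klhl, Asb, Otud, Mdm, Peli or Wwp. Of 2689 genes listed in all 6 libraries, 68 met the rule, and all 68 could be compared. They held 119 of the 4658 alternative splicing events compared in the series. No measured value entered the rule. The prefixes also caught genes outside these classes. Among them are Mdm1, a microtubule-binding protein of centrioles that is not a ubiquitin ligase, and the UBX protein Ubxn11.

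The study depleted Raver2, an RNA-binding protein that partners the splicing repressor PTB, or Setd2, a histone methyltransferase that acts on transcribed genes, and asked how inclusion of alternative splicing events responded. The cells were medullary thymic epithelial cells (mTECs), which display tissue self-antigens to developing T cells. Primary mTECs from mice, gated as EpCAM+ I-A/E+ and negative for CD45 and Ly51, were placed over a fibrin gel that held human dermal fibroblasts, and received there a pLKO.3G lentivirus that carries a short hairpin and a GFP reporter. After 5 days, viable GFP+ I-A/E+ cells were sorted and their RNA was amplified and sequenced. There were 3 groups of 2 libraries. The Raver2 knockdown libraries carried hairpins sh1 and sh2 against Raver2, and the Setd2 knockdown libraries carried hairpins sh1 and sh2 against Setd2. Both Ctr libraries carried a hairpin against LacZ, a bacterial gene. All cells, Ctr included, were therefore infected, GFP+ and grown with human fibroblasts, and each knockdown hairpin was seen in 1 library only. No strain, age or sex of the mice is given in the sources used here. Nothing in the labels says that the libraries of a group stem from different mice or cultures, so a p-value speaks to the spread among these libraries alone, which may be technical.

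Each value was an inclusion frequency, the fraction from 0 to 1 with which an event was included, and a listed event is no measure of how strongly its gene was expressed. The libraries listed 4777 to 4949 events each. The reads behind a fraction are unknown, so no interval could be given for a single value, and the number of libraries limits the precision. Neither Raver2 nor Setd2 had a listed event, so the extent of the knockdown could not be checked. Events were listed for 3 of 12 mTEC markers (Aire, Cd74 and Cd40), 1 of 10 fibroblast markers (Postn), 3 of 10 thymocyte and leukocyte markers (Ptprc, Cd8a and Lck) and 1 of 5 cortical epithelial markers (Cxcl12). Whether other cells contributed to a result was not tested. Over the 119 events, the Pearson correlation between the libraries of a group was 0.888 for Raver2 knockdown, 0.839 for Setd2 knockdown and 0.768 for Ctr. Between groups it ran from 0.711 to 0.873, and the highest value joined Raver2 sh2 and the second Ctr library, so over these events the Ctr libraries were less alike than that pair. Over all events the order was the other way, with 0.762 for that pair and 0.796 for the Ctr pair. These correlations are across events of the same genes and describe the libraries only.

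Ubiquitin is passed from an activating enzyme to a conjugating enzyme and then, with the help of a ligase, to a protein, where chains of it can send the protein to the proteasome or alter its activity and location. RING and TRIM ligases bring the conjugating enzyme and the target together, HECT ligases carry the ubiquitin themselves, and cullin-RING ligases are assembled from a cullin scaffold and interchangeable receptors with F-box, BTB-Kelch or SOCS-box domains. Deubiquitinases reverse the mark. In mTECs the pathway bears on the proteasome's supply of peptides for antigen display and on the NF-κB signals that mTECs need to mature.

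Only a handful of events in these genes changed past the test, and most of them belonged to the RING ligases Rnf146 and Rnf41. In Raver2 knockdown, inclusion of Rnf146 events 1 and 3 fell to less than 0.01 with both hairpins, against 0.616 to 0.791 in Ctr. In Setd2 knockdown, inclusion of Rnf41 event 2 rose and that of event 5 fell, each by about 0.05. A minor event of the F-box gene Fbxl4 rose in Raver2 knockdown. Events are numbered here by their order within a gene, since the tables gave a symbol and no coordinates.

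Against Ctr, 3 of 119 events passed an adjusted p of 0.05 in Raver2 knockdown (limma, adjusted over all 4658 events), 1 higher and 2 lower. Over all events the share called was 2.43%, with 1.01% higher and 1.42% lower, so these genes were called about as often as any. In Setd2 knockdown 2 of 119 events passed, 1 higher and 1 lower, beside 2.23% of all events (0.88% higher and 1.35% lower). Between Raver2 and Setd2 knockdown 1 of 119 events passed, lower in Raver2 knockdown, beside 0.73% of all events (0.408% higher and 0.322% lower). Both knockdowns were set against the same 2 Ctr libraries, so their differences from Ctr share that error.

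At an unadjusted p under 0.05 (limma) there were 12 of 119 events (10.1%) in Raver2 knockdown, 14 (11.8%) in Setd2 knockdown and 11 (9.24%) between the knockdowns. Over all 4658 events the shares were 12.0%, 11.6% and 6.12%. The median absolute difference over the 119 events was 0.0495 for Raver2 knockdown, 0.0424 for Setd2 knockdown and 0.0290 between the knockdowns, beside 0.0423, 0.0412 and 0.0261 over all events. Libraries of Raver2 knockdown and Ctr did not overlap at 48 of 119 events, 16 higher and 32 lower, where 20.7% of all events were higher and 23.4% lower. For Setd2 knockdown and Ctr they did not overlap at 47 events, 23 higher and 24 lower, beside 21.2% and 21.3% of all events. For Raver2 and Setd2 knockdown they did not overlap at 47 events, 21 higher and 26 lower, beside 15.3% and 18.4% of all events.

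**Figure D1:**
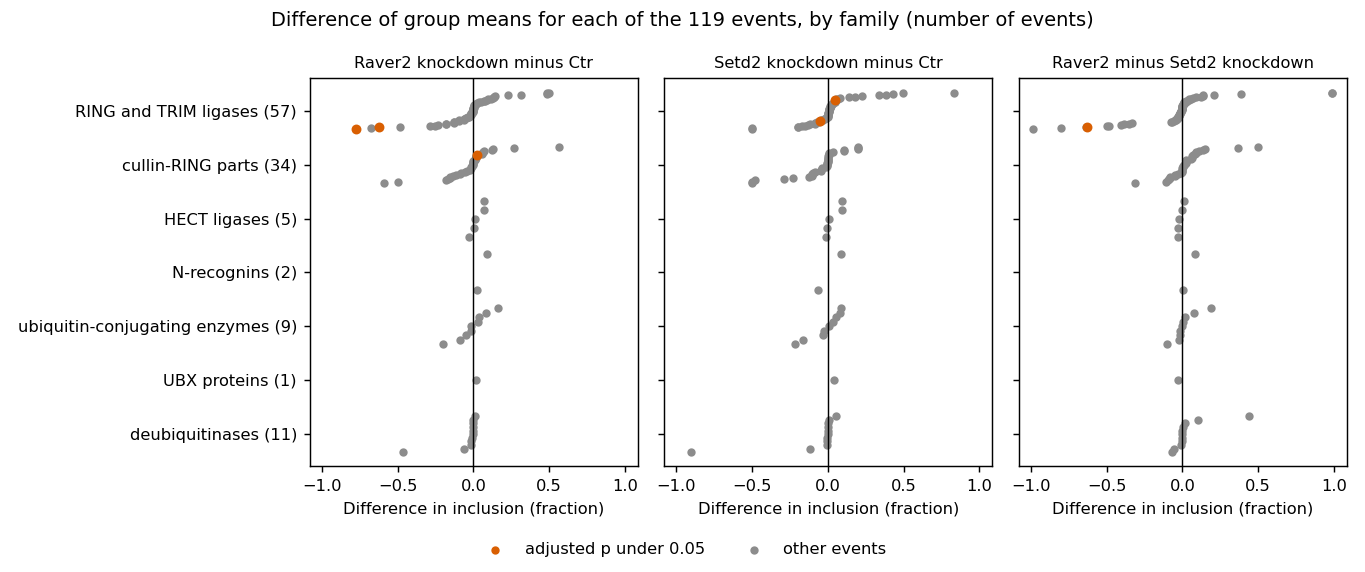
Difference in inclusion (fraction, x axis) of each of the 119 events, by enzyme family (y axis, number of events in brackets), for Raver2 knockdown minus Ctr, Setd2 knockdown minus Ctr and Raver2 minus Setd2 knockdown. Each point is 1 event and orange points passed an adjusted p of 0.05: 3, 2 and 1 events in the 3 panels, all of them RING or TRIM ligases except 1 cullin-RING event in Raver2 knockdown.

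The families held unequal numbers of events. RING and TRIM ligases made up 57 events of 32 genes (54 events of 31 genes without Mdm1, which is counted there by its prefix), cullin-RING components 34 events of 19 genes, deubiquitinases 11 events of 8 genes, ubiquitin-conjugating enzymes 9 events of 4 genes, HECT ligases 5 events of 2 genes, N-recognins 2 events of 2 genes and UBX proteins 1 event of 1 gene. The plot of differences by family shows that most points lie close to 0 in each comparison. Where Ctr inclusion was concerned, 64 events (53.8%) averaged between 0.1 and 0.9, 32 events (26.9%) averaged under 0.1 and 23 events (19.3%) over 0.9, close to the 52.2%, 27.5% and 20.4% of all events. The median inclusion over the 119 events was 0.457 and 0.442 in the Raver2 knockdown libraries and 0.497 and 0.481 in the Setd2 knockdown libraries, against 0.523 and 0.518 in the Ctr libraries. Over all events these medians were 0.395 and 0.395 in Raver2 knockdown and 0.389 and 0.358 in Setd2 knockdown, against 0.401 and 0.420 in Ctr.

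The ubiquitin-conjugating enzymes gave no event past the test in any comparison (limma). Of their 9 events, 1, 2 and 0 had an unadjusted p under 0.05 (limma) in Raver2 knockdown, Setd2 knockdown and between them. Over all events the shares were 12.0%, 11.6% and 6.12%. Ube2w attaches ubiquitin to the amino terminus of its targets. Its event 1 was at above 0.99 and 0.985 in Raver2 knockdown and at 0.988 and above 0.99 in Setd2 knockdown, against 0.962 and 0.956 in Ctr. All 4 knockdown libraries lay above both Ctr libraries, but the differences of 0.0336 ± 0.00785 and 0.0354 ± 0.00785 (± SE) had limma adjusted p of 0.242 and 0.211. Ube2j2 is anchored in the endoplasmic reticulum membrane and serves the disposal of misfolded proteins there. Its event 4 was at 0.789 and 0.803 in Raver2 knockdown and at 0.750 and 0.682 in Setd2 knockdown, against 0.845 and 0.918 in Ctr. The Setd2 difference of -0.165 ± 0.0381 had a limma adjusted p of 0.229. The other enzymes of the family, Ube2t of the Fanconi anaemia repair pathway and Ube2v2, a catalytically inactive partner, ranged from 0.648 to above 0.99 and from 0.598 to 0.817 over the libraries, and both knockdowns overlapped Ctr at each.

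Among the RING ligases, Rnf146 (chr10:29344176-29362442, minus strand, mm10) recognises proteins marked with poly(ADP-ribose) and drives the breakdown of axin, a brake on Wnt signalling. Event 1 was included at 0.00266 and 0.00181 in Raver2 knockdown and at 0.616 and 0.651 in Setd2 knockdown, against 0.641 and 0.616 in Ctr. Event 3 was included at 0.00184 and 0.00199 in Raver2 knockdown and at 0.733 and 0.876 in Setd2 knockdown, against 0.759 and 0.791 in Ctr. At both events inclusion was nearly 0 with each Raver2 hairpin, while the Setd2 knockdown libraries overlapped Ctr.

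Event 1 of Rnf146 averaged 0.00223 ± 0.000602 in Raver2 knockdown, 0.634 ± 0.0251 in Setd2 knockdown and 0.628 ± 0.0181 in Ctr (SD, n = 2 libraries each). It differed by -0.626 ± 0.0487 (SE) between Raver2 knockdown and Ctr, with a limma adjusted p of 0.0221, and by -0.631 ± 0.0487 between Raver2 and Setd2 knockdown, with an adjusted p of 0.0456. Event 3 differed by -0.773 ± 0.0664 between Raver2 knockdown and Ctr (limma adjusted p = 0.0269), and by -0.803 ± 0.0664 between the knockdowns, where the adjusted p of 0.0521 missed the threshold. In Setd2 knockdown the differences from Ctr were 0.00522 ± 0.0487 and 0.0293 ± 0.0664, with limma adjusted p of 1 and 0.968.

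Event 2 of Rnf146 lay the other way. It was included at 0.805 and 0.830 in Raver2 knockdown and at 0.497 and 0.369 in Setd2 knockdown, against 0.372 and 0.636 in Ctr. The Raver2 libraries were above all 4 others, but the spread in Ctr was wide and the difference of 0.314 ± 0.113 had a limma adjusted p of 0.426. Event 4 was at 0.740 and 0.844 in Raver2 knockdown and at 0.629 and 0.689 in Setd2 knockdown, against 0.511 and 0.806 in Ctr, so both knockdowns overlapped Ctr. GENCODE M21 gives Rnf146 6 transcripts, all coding, with 7 different splice junctions. Of those junctions 1 joins coding sequence, and the gene's only annotated cassette exon, of 61 bases, is untranslated. Which of these the 4 events stand for is not known.

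The call on Rnf146 event 1 in Raver2 knockdown was lost without any 1 of the knockdown libraries. Its limma adjusted p became 0.0772 without Raver2 sh1, 0.0903 without Raver2 sh2, 0.0685 without Setd2 sh1 and 0.0612 without Setd2 sh2. For event 3 it became 0.0977 without Raver2 sh1, 0.109 without Raver2 sh2, 0.0749 without the first Ctr library and 0.0811 without the second. With the 4 libraries of the comparison alone, event 1 still passed (limma adjusted p = 0.0486) and event 3 did not (0.0523). The difference between the knockdowns at event 1 missed the threshold when any 1 library was left out (limma adjusted p = 0.0665 to 0.107) and with the 4 knockdown libraries alone (0.0743). The sign was negative in each of these fits.

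**Figure D2:**
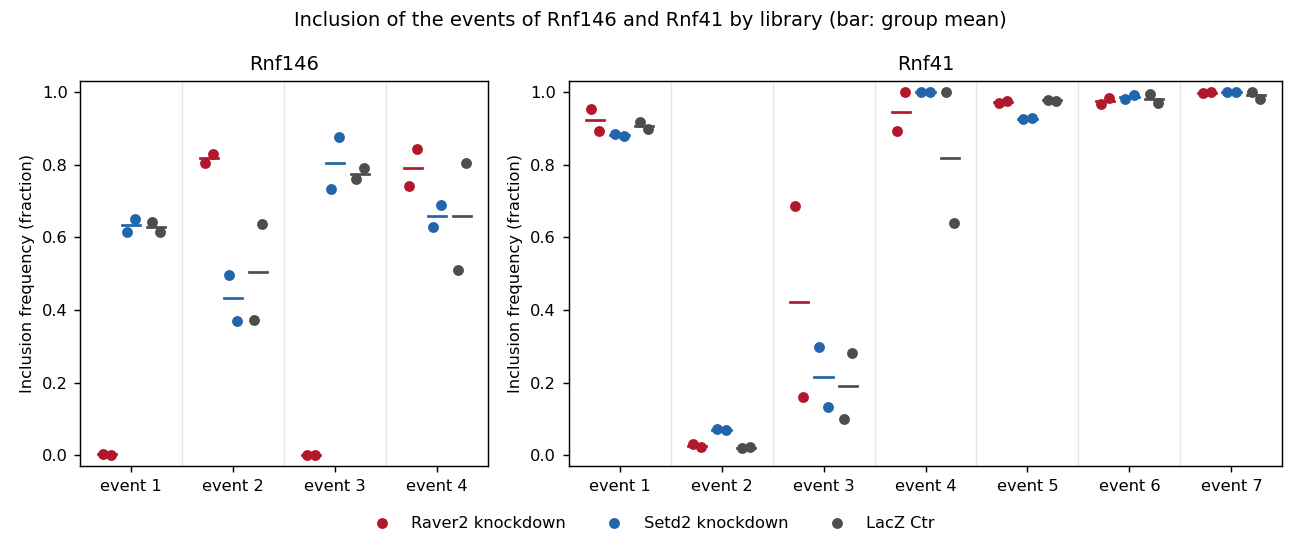
Inclusion frequency (fraction, y axis) of the 4 events of Rnf146 and the 7 events of Rnf41 (x axis), with 1 point per library and a bar at the mean of the 2 libraries of each group. Rnf146 events 1 and 3 lie below 0.01 in both Raver2 knockdown libraries and between 0.616 and 0.876 in the other 4, whereas Rnf41 events 2 and 5 are set apart in Setd2 knockdown by about 0.05.

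Rnf41 (chr10:128411657-128441441, plus strand, mm10), also called Nrdp1, is a RING ligase that controls the level of ErbB receptors and sorts other receptors. With 7 events it had more than any other of these genes. Event 2 was included at 0.0306 and 0.0226 in Raver2 knockdown and at 0.0720 and 0.0684 in Setd2 knockdown, against 0.0197 and 0.0221 in Ctr. Event 5 was included at 0.969 and 0.975 in Raver2 knockdown and at 0.925 and 0.928 in Setd2 knockdown, against 0.979 and 0.976 in Ctr. In every library events 2 and 5 summed to 1 within 0.00375, so they are 2 views of a single choice and not separate results.

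The Setd2 knockdown libraries stood apart from the other 4 at both of these events. For Rnf41 event 2 the difference from Ctr was 0.0492 ± 0.00356 (limma adjusted p = 0.0217), and for event 5 it was -0.0511 ± 0.00426 (limma adjusted p = 0.0276). Raver2 knockdown differed from Ctr by 0.00568 and -0.00533, with limma adjusted p of 0.712 and 0.724. Between Raver2 and Setd2 knockdown the differences were -0.0436 ± 0.00356 and 0.0458 ± 0.00426, and the limma adjusted p of 0.0514 and 0.0758 missed the threshold. In the Setd2 comparison event 2 missed it without the first Ctr library (0.0593), the second Ctr library (0.0567), Setd2 sh1 (0.0989) or Setd2 sh2 (0.0784), each a limma adjusted p, and also with no variance trend (0.0536) or the 4 libraries of the comparison alone (0.0593). Event 5 missed it on the arcsine scale (0.0590), with those 4 libraries alone (0.0729) and without Raver2 sh1 (0.0667), Raver2 sh2 (0.0723), Setd2 sh1 (0.0989) or Setd2 sh2 (0.0799). Without Raver2 sh1 the difference between the knockdowns at event 2 was -0.0475. That value rests on Raver2 sh2 alone, so a pass there adds no support.

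The other 5 events of Rnf41 had limma adjusted p from 0.700 to 1 in the comparisons with Ctr. Event 3 differed most between libraries of a group, with 0.686 and 0.160 in Raver2 knockdown and 0.299 and 0.134 in Setd2 knockdown, against 0.0999 and 0.282 in Ctr. Event 4 was at 0.892 and above 0.99 in Raver2 knockdown and above 0.99 in both Setd2 knockdown libraries, against above 0.99 and 0.638 in Ctr. Events 1, 6 and 7 stayed at 0.880 or above in all libraries. GENCODE M21 gives Rnf41 4 transcripts, of which 2 are coding with the same coding exons and 2 are annotated as targets of nonsense-mediated decay. The exon that a decay-annotated transcript skips is shown because it is the only exon of the coding transcripts skipped that way: it lies at chr10:128435313-128435584 (plus strand, mm10), and its 272 bases are not a multiple of 3, so skipping it shifts the reading frame. Read from the GENCODE M21 transcripts 5′ to 3′, with the 3 bases next to each splice site in capitals, it is as follows, and whether events 2 and 5 measure it is not known.
Rnf41 exon: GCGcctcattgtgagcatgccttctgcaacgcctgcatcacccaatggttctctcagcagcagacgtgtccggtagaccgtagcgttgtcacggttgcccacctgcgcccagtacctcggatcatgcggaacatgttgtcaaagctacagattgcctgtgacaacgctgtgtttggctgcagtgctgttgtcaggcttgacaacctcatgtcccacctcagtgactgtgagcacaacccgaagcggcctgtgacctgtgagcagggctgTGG

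At Mdm2, Rnf20 and Mdm1 all 4 knockdown libraries lay below both Ctr libraries, and none of these differences passed the test. Mdm2, the ligase that holds p53 down, was included at 0.801 and 0.776 in Raver2 knockdown and at 0.780 and 0.779 in Setd2 knockdown, against 0.825 and 0.851 in Ctr. The differences of -0.0495 ± 0.0162 and -0.0583 ± 0.0162 had limma adjusted p of 0.39 and 0.307. Rnf20, which ubiquitinates histones in transcribed genes, was included at event 1 at 0.203 and 0.244 in Raver2 knockdown and at 0.277 and 0.306 in Setd2 knockdown, against 0.396 and 0.416 in Ctr. Raver2 knockdown lay lowest, and the differences of -0.183 ± 0.0399 and -0.115 ± 0.0399 had limma adjusted p of 0.215 and 0.427. Mdm1 event 1 was at 0.702 and 0.655 in Raver2 knockdown and at 0.650 and 0.655 in Setd2 knockdown, against 0.822 and 0.786 in Ctr. Its differences of -0.125 ± 0.0272 and -0.151 ± 0.0272 had limma adjusted p of 0.212 and 0.150. Event 3 of Mdm1 was at 0.615 and 0.631 in Raver2 knockdown and at 0.677 and 0.715 in Setd2 knockdown, against 0.654 and 0.647 in Ctr, so there the knockdowns lay on either side of Ctr (limma adjusted p of their difference = 0.858). Because the knockdowns share both Ctr libraries, their like sign at these events is not separate evidence.

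Rnf44, a RING finger protein, lay on opposite sides of Ctr in the knockdowns. Event 1 was at 0.252 and 0.261 in Raver2 knockdown and at 0.160 and 0.107 in Setd2 knockdown, against 0.167 and 0.195 in Ctr. Raver2 knockdown was above the other groups and Setd2 knockdown below them, but the differences from Ctr of 0.0756 ± 0.0261 and -0.0472 ± 0.0261 had limma adjusted p of 0.409 and 0.676, and the difference between the knockdowns of 0.123 ± 0.0261 had 0.473.

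Trim9, a ligase best known from axon guidance in neurons, carried a rare event 1 that was included at 0.00940 and 0.00769 in Raver2 knockdown and at 0.0198 and 0.0194 in Setd2 knockdown, against 0.00780 and 0.00494 in Ctr. The Setd2 libraries were above the other 4, and their difference from Ctr of 0.0132 ± 0.00148 just missed the threshold (limma adjusted p = 0.0530). Without the first Ctr library this difference was 0.0147, and event 2 of Trim9 differed from Ctr by -0.256 in both knockdowns. Those values rest on the second Ctr library alone, so a pass in that fit adds no support. With all 6 libraries event 2 passed in no comparison (limma). On the logit scale event 1 passed (limma adjusted p = 0.000430), as did its difference between the knockdowns (0.000715). Fractions were first raised to at least 0.01 there, so both Raver2 knockdown and both Ctr libraries became equal. Those p-values rest on that step and add no support for event 1. Trim9 has 1 annotated cassette exon, a short coding one of 33 bases at chr12:70267234-70267266 (minus strand, mm10), shown as the candidate place for such an event and with capitals as above. Its length is a multiple of 3, so the reading frame is kept with or without it, and whether the event measures it is not known.
Trim9 exon: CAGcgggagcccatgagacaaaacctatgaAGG

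With all 6 libraries no event of the other TRIM ligases had an unadjusted p under 0.05 in any comparison (limma). Without Raver2 sh2, Trim45 in Raver2 knockdown differed from Ctr by 0.272 and from Setd2 knockdown by 0.271. Without Setd2 sh2, Trim3 event 3 in Setd2 knockdown differed from Ctr by 0.913. Each of these values rests on the 1 library of its knockdown that was left, so a pass there adds no support. Trim26, which acts in innate immune signalling, had 3 linked events, of which event 2 mirrored events 1 and 3. Event 2 was at 0.592 and 0.630 in Raver2 knockdown and at 0.580 and 0.615 in Setd2 knockdown, against 0.477 and 0.553 in Ctr, with limma adjusted p of 0.601 and 0.689. Trim33, a regulator of Smad proteins, was at 0.389 and 0.589 in Raver2 knockdown and at 0.512 and 0.531 in Setd2 knockdown, against 0.611 and 0.832 in Ctr. The knockdown libraries of both genes lay to 1 side of Ctr, at a distance of the same order as the gap between the Ctr libraries. Trim21, the cytosolic antibody receptor, was at 0.798 and 0.913 in Raver2 knockdown and at 0.874 and 0.884 in Setd2 knockdown, against 0.594 and 0.881 in Ctr, and the groups overlapped.

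The cullin-RING receptors gave 1 call. Fbxl4 (chr4:22357543-22434091, plus strand, mm10) is an F-box protein of mitochondria that restrains mitophagy. Its event 1 was included at 0.0211 and 0.0279 in Raver2 knockdown and below 0.01 in both Setd2 knockdown libraries, as in both Ctr libraries. The difference from Ctr was 0.0245 ± 0.00259 (limma adjusted p = 0.0428), and that between the knockdowns was also 0.0245 ± 0.00259 (limma adjusted p = 0.0968). This is a rise of a few hundredths from the floor of the scale, where the reads behind it are unknown. The call was lost on the logit scale (limma adjusted p = 0.0673), with no variance trend (0.162), with 4 libraries alone (0.133) and without the first Ctr library (0.130), the second Ctr library (0.127), Setd2 sh1 (0.136) or Setd2 sh2 (0.139). The difference between the knockdowns passed on the arcsine scale (limma adjusted p = 0.0154). It was 0.0279 without Raver2 sh1 and 0.0211 without Raver2 sh2. In those fits only the pairs at the floor set the spread of this event, so a pass there adds no support. Event 3 of Fbxl4 was at 0.204 and 0.182 in Raver2 knockdown and at 0.127 and 0.209 in Setd2 knockdown, against 0.0804 and 0.0399 in Ctr. Both knockdowns lay above Ctr there, with differences of 0.133 ± 0.0351 and 0.108 ± 0.0351 and limma adjusted p of 0.290 and 0.388. Of the 5 transcripts GENCODE M21 gives Fbxl4, 1 is coding and 3 are annotated as targets of nonsense-mediated decay.

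Klhl26, a BTB-Kelch protein of the kind that serves as receptor for cullin 3, was included at 0.920 and 0.916 in Raver2 knockdown and at 0.732 and 0.811 in Setd2 knockdown, against 0.997 and above 0.99 in Ctr. The 3 groups did not overlap. Setd2 knockdown differed from Ctr by -0.227 ± 0.0294 and Raver2 knockdown by -0.0804 ± 0.0294, with limma adjusted p of 0.0732 and 0.434, and the knockdowns differed by 0.147 ± 0.0294 (adjusted p = 0.427). Whether Klhl26 passed depended on the fit. The Setd2 difference passed on the arcsine scale (limma adjusted p = 0.0306) and on the logit scale (0.00792). The Raver2 difference passed on the logit scale (limma adjusted p = 0.0262) and with the 4 libraries of that comparison alone (0.0398). On the logit scale both Ctr libraries were first set to 0.99, which left them no spread. Without Setd2 sh1 the Setd2 difference from Ctr was -0.188 and the difference between the knockdowns 0.107. Without Setd2 sh2 they were -0.267 and 0.186. Leaving out 1 or both Setd2 libraries takes the gap of that pair, the widest of the 3 groups, out of the spread. A pass in such a fit therefore adds no support.

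Fbxw2, a WD40 receptor of SCF ligases, was included at 0.773 and 0.697 in Raver2 knockdown and at 0.838 and 0.818 in Setd2 knockdown, against 0.872 and 0.867 in Ctr. The 3 groups again did not overlap, but Raver2 knockdown differed from Ctr by -0.134 ± 0.0302 with a limma adjusted p of 0.230, and the knockdowns differed by -0.0930 ± 0.0302 with 0.793. Klhl26 and Fbxw2 each have 1 listed event and 1 annotated coding cassette exon, as do other genes here, Usp14 among them. Both were named for their values, and of such genes only these are shown here. The Klhl26 exon lies at chr8:70455466-70455648 and has 183 bases, and the Fbxw2 exon lies at chr2:34812815-34813009 and has 195 bases, both on the minus strand of mm10. Both lengths are multiples of 3. The sequences are from the GENCODE M21 transcripts, 5′ to 3′, with capitals as above, and it is not known that the events measure these exons.
Klhl26 exon: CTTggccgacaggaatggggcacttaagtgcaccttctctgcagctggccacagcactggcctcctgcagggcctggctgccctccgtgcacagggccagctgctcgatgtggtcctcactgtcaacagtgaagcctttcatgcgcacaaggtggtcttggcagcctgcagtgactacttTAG
Fbxw2 exon: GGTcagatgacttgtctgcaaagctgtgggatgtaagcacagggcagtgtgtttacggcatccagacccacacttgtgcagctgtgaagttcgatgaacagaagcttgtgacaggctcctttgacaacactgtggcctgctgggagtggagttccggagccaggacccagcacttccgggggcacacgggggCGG

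Other F-box receptors varied without passing. Fbxo6, which binds sugar chains of misfolded glycoproteins, was at 0.131 and 0.204 at event 1 in Raver2 knockdown and at 0.269 and 0.231 in Setd2 knockdown, against 0.290 and 0.404 in Ctr. Raver2 knockdown lay lowest and Ctr highest, with a difference of -0.179 ± 0.0571 between them (limma adjusted p = 0.382). Fbxo34 event 2 was at 0.0760 and 0.282 in Raver2 knockdown and at 0.0846 and below 0.01 in Setd2 knockdown, against 0.328 and 0.333 in Ctr. The Ctr libraries agreed closely and the knockdown libraries did not, so the Setd2 difference of -0.288 ± 0.0826 had a limma adjusted p of 0.327. The cullins listed stayed near an end of the scale, with Cul5 at 0.901 to 0.981 and the scaffold Cul4b below 0.01 in all libraries. The SOCS-box receptor Asb7 ran from 0.222 to 0.537, and those limits were the 2 Ctr libraries.

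**Figure D3:**
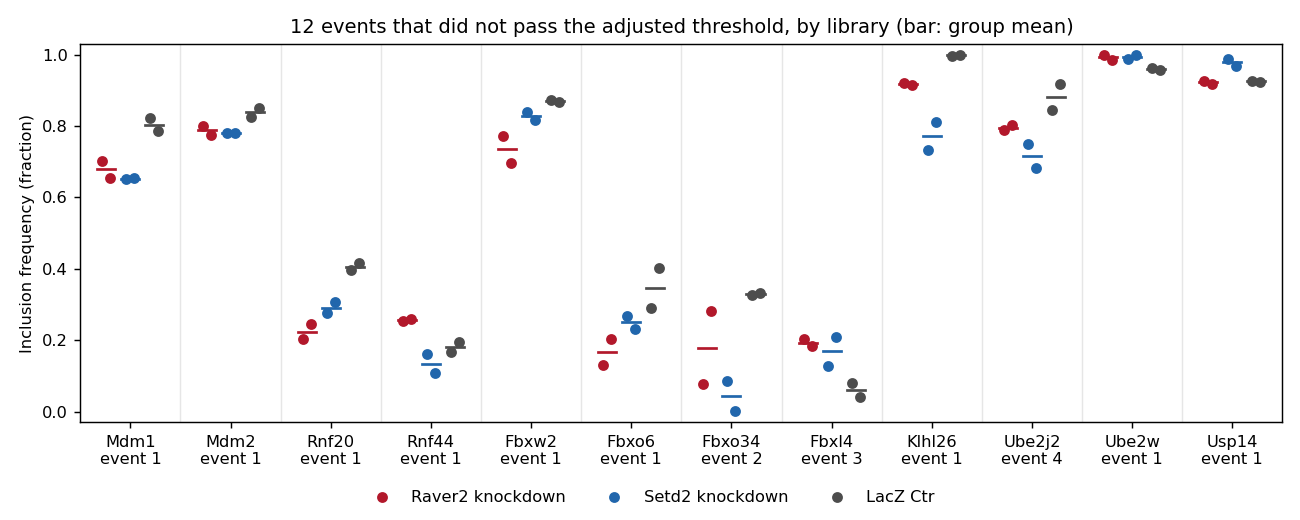
Inclusion frequency (fraction, y axis) of 12 events (x axis) with a large moderated t but an adjusted p above 0.05, with 1 point per library and a bar at each group's mean of 2 libraries. Mdm1, Mdm2 and Rnf20 lie lower in all 4 knockdown libraries than in Ctr, and at Klhl26 the 3 groups are separate, with Setd2 knockdown at 0.732 and 0.811.

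The HECT ligases, N-recognins and UBX protein gave no call in any comparison, and at the 5 events of HECT ligases no unadjusted p was under 0.05 (limma). Wwp1, a HECT ligase with WW domains from the family of Nedd4, was at 0.987 and 0.983 at event 1 in Raver2 knockdown and at above 0.99 and 0.971 in Setd2 knockdown, against 0.958 and above 0.99 in Ctr. Events 3 and 4 of Wwp1 held the same values and were at 0.928 and 0.879 in Raver2 knockdown and at 0.910 and 0.948 in Setd2 knockdown, against 0.982 and 0.689 in Ctr. The groups overlapped at each of these. Herc4 stayed at 0.0697 or less in all libraries, and its 1 annotated cassette exon has 24 bases. Ubr3, of the family that recognises destabilising amino termini, ran from 0.300 to 0.462, and Ubxn11, whose UBX domain is of the kind that binds the segregase VCP, from 0.933 to above 0.99.

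With all 6 libraries no event of the deubiquitinases passed (limma). An unadjusted p under 0.05 (limma) was found at 0, 2 and 1 of 11 in Raver2 knockdown, Setd2 knockdown and between them. The shares of all events were 12.0%, 11.6% and 6.12%. Usp43 passed when 1 Raver2 knockdown library was left out, with the values given further on. Usp14 trims ubiquitin chains at the proteasome. It was at 0.927 and 0.919 in Raver2 knockdown and at 0.987 and 0.969 in Setd2 knockdown, against 0.926 and 0.924 in Ctr. The Setd2 knockdown libraries lay above the other 4, by 0.0531 ± 0.00793 over Ctr (limma adjusted p = 0.101), while Raver2 minus Setd2 knockdown was -0.0554 ± 0.00793 (limma adjusted p = 0.206). Usp45, a deubiquitinase of the repair nuclease subunit Ercc1, was at 0.666 and 0.611 in Raver2 knockdown and at 0.513 and 0.558 in Setd2 knockdown, against 0.633 and 0.675 in Ctr. Its Setd2 difference of -0.119 ± 0.0412 had a limma adjusted p of 0.427. Otud7b, which restrains NF-κB signalling, was below 0.01 in both Raver2 knockdown libraries, at below 0.01 and 0.136 in Setd2 knockdown, and at 0.122 and below 0.01 in Ctr. Usp8, which spares endosomal receptors from degradation, had 3 linked events fixed at the ends of the scale in all libraries.

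Some events held steady across all libraries, and the narrowest among those with a mean inclusion from 0.1 to 0.9 were Rnf14, Rnf216, Usp33 event 1, Mdm2, Ube2j2 event 1, Mdm1 event 3, Fbxo44 event 1 and Rnf138. Rnf14, a RING-between-RING ligase, was at 0.631 and 0.588 in Raver2 knockdown and at 0.568 and 0.589 in Setd2 knockdown, against 0.575 and 0.566 in Ctr. Rnf216, of the same ligase type, spanned 0.351 to 0.423, and Usp33, a deubiquitinase of the Robo1 receptor in human cells, 0.39 to 0.471. An intermediate fraction such as these cannot tell a mixture within each cell from a mixture of cells that differ.

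At the other extreme, libraries of 1 group could disagree by nearly the whole scale. Rnf32, a RING finger protein known from testis, was at above 0.99 and 0.975 at event 1 in Raver2 knockdown and below 0.01 in both Setd2 knockdown libraries, whereas Ctr held below 0.01 and above 0.99. The knockdowns were thus fully apart, but the Ctr pair spanned the range and enters the shared spread: the difference of 0.987 ± 0.369 had a limma adjusted p of 0.868. Without the first Ctr library it was 0.0351, without the second also 0.0351, and with the 4 knockdown libraries alone 0.0491. Event 2 repeated event 1 and event 3 mirrored it, so the 3 are a single measurement. March2, a membrane-bound ligase of endosomes, was below 0.01 in both Raver2 knockdown libraries, at above 0.99 and below 0.01 in Setd2 knockdown, and at 0.982 and 0.364 in Ctr at event 1. A single library could set an event apart. Fbxl13 was above 0.99 in the first Ctr library and below 0.01 in the other 5. Fbxw11, a receptor for phosphorylated IκB and β-catenin, was at below 0.01 and 0.768 at event 4 in Raver2 knockdown and at 0.708 and 0.686 in Setd2 knockdown, against below 0.01 and above 0.99 in Ctr. For Klhl32 only Setd2 sh1 was below 0.01 and the other 5 libraries were above 0.99. In Fbxw11 and Trim15 the wide gap was within the Raver2 pair, and in Fbxw11 within the Ctr pair too. Trim15, a TRIM protein of focal adhesions, was at above 0.99 and below 0.01 in Raver2 knockdown and at above 0.99 and 0.669 in Setd2 knockdown, against below 0.01 in both Ctr libraries. Leaving out 1 library turned some of these into calls. Without the second Ctr library Fbxl13 differed from Ctr by -0.999 in Raver2 knockdown and in Setd2 knockdown. Without Setd2 sh2 Klhl32 in Setd2 knockdown differed from Ctr by -0.998. Each of these values rests on the 1 outlying library that was left in its group, so such a call adds no support.

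Gaps inside a group were found in Ctr as well as in the knockdowns. The libraries of a group differed by more than 0.1 at 25 events (21.0%) in Raver2 knockdown, 27 events (22.7%) in Setd2 knockdown and 38 events (31.9%) in Ctr, beside 22.9%, 25.5% and 27.7% of all events. Gaps over 0.5 occurred at 5, 5 and 8 of the 119 events in these groups, beside 298, 345 and 313 of all 4658 events. The 8 in Ctr hold Rnf32 more than once, although its events are a single measurement. Usp43, named after its values were seen, was at 0.0709 and above 0.99 in Raver2 knockdown and at 0.102 and 0.0881 in Setd2 knockdown, against above 0.99 in both Ctr libraries. The Setd2 libraries were far below Ctr, but the Setd2 difference of -0.905 ± 0.343 had a limma adjusted p of 0.466. Without Raver2 sh1 the Setd2 difference was again -0.905, and Raver2 minus Setd2 knockdown was 0.905. Without Raver2 sh2, Raver2 knockdown minus Ctr was -0.929. Leaving out 1 Raver2 library takes the wide gap of that pair out of the shared spread. A pass of Usp43 in such a fit therefore adds no support.

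**Figure D4:**
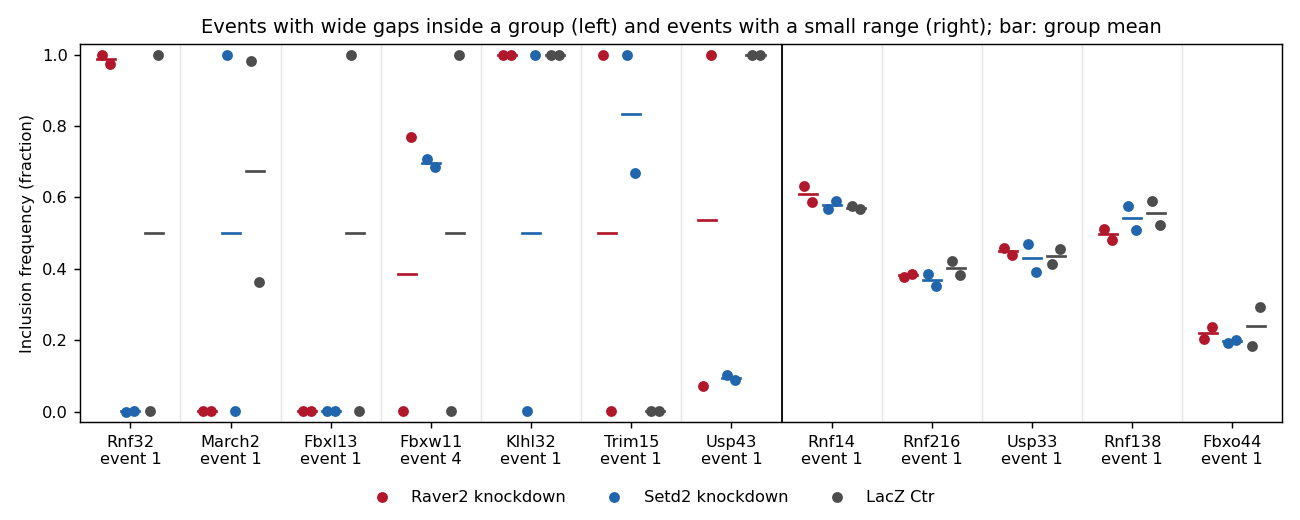
Inclusion frequency (fraction, y axis) of 7 events with wide gaps between libraries of a group (left of the line) and 5 events with a small range (right of it), with 1 point per library and a bar at each group's mean of 2 libraries. On the left, points of 1 group sit at both ends of the scale, as in the Ctr pair of Rnf32, whereas on the right all 6 libraries of an event lie close together.

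The gene structures of these 68 genes resembled those of the other genes with listed events. In GENCODE M21, where all 68 matched by symbol, they had a median of 7 transcripts and 23 different exons, beside 7 and 25 for the others. A cassette exon between coding transcripts was annotated for 41 of them (60.3%, beside 66.7%), and 38.2% had several listed events, beside 37.7%. Of 42 coding cassette exons in 32 genes, 32 (76.2%) had a length that is a multiple of 3, beside 77.2%. Another 23 cassette exons in 16 genes, Rnf146 among them, were untranslated.

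Other genes of the pathway, among them activating enzymes, further ligases and deubiquitinases and proteasome subunits, gave 78 events in 44 genes. None of them passed in any comparison (limma), and 6, 7 and 3 had an unadjusted p under 0.05 in Raver2 knockdown, Setd2 knockdown and between them. These are 7.69%, 8.97% and 3.85% of the 78, each below the 12.0%, 11.6% and 6.12% of all events. The event nearest to the threshold was event 1 of Cyld, a deubiquitinase that limits NF-κB signalling and is needed for T cell development in the mouse thymus. It was at 0.0626 and 0.0765 in Raver2 knockdown and at 0.0881 and 0.0870 in Setd2 knockdown, against 0.0460 in both Ctr libraries, with a Setd2 difference of 0.0416 ± 0.00553 (limma adjusted p = 0.0786). Event 2 of Cyld lay the other way, at 0.432 and 0.475 in Raver2 knockdown and at 0.499 and 0.470 in Setd2 knockdown, against 0.651 and 0.675 in Ctr, with limma adjusted p of 0.199 and 0.252. Keap1, the cullin 3 receptor for the stress factor Nrf2, was at 0.166 and 0.186 at event 5 in Raver2 knockdown and at 0.158 and 0.146 in Setd2 knockdown, against 0.105 and 0.0927 in Ctr. All knockdown libraries were above Ctr, with differences of 0.0771 ± 0.0119 and 0.0532 ± 0.0119 and limma adjusted p of 0.109 and 0.217. Event 1 of Keap1 was at 0.24 and 0.176 in Raver2 knockdown and at 0.107 and 0.101 in Setd2 knockdown, against 0.0739 and 0.0243 in Ctr, and its Raver2 difference of 0.159 ± 0.0301 had a limma adjusted p of 0.171. Itch, a HECT ligase tied to immune tolerance in mice, was at 0.128 and 0.157 at event 1 in Raver2 knockdown and at 0.161 and 0.0979 in Setd2 knockdown, against 0.281 and 0.217 in Ctr (limma adjusted p = 0.409 and 0.357).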

How the data were processed

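The tools named are TopHat2, Cufflinks and Trimmomatic 0.39, on build mm10, per the submitters' processing notes, which give them no role or order. The authors deposited, per library, gene symbols and an inclusion fraction from 0 to 1 for each event. Its computation, coverage and filters are not given in the sources used, so depth is unknown and every listed event was kept.

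Events were joined across libraries by symbol and by order within the gene, which assumes the same order in every library. Groups follow the labels. limma 3.58.1 (R 4.3.3) was run on the fractions of all 6 libraries, with group means and a variance trend. Contrasts were two-sided, with Benjamini-Hochberg adjustment over 4658 events at 0.05. No hairpin block was used, since sh1 and sh2 name different hairpins per target. The fit was tested on simulated data. Alternatives were other scales, no variance trend, fewer events, fewer libraries and a block. For the logit scale, fractions below 0.01 or above 0.99 were set to those limits first. Where 1 library of a group was left, it was assumed to vary like the other groups. Python 3.11.15, numpy 2.4.6 and pandas 2.3.3 handled the tables.

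Named were events past the threshold, the 10 genes with the largest moderated t per comparison, a fixed set of genes where listed, the gene with most events, and the 8 events of smallest range and of widest gap. Of the wider pathway, the 4 events of largest moderated t per comparison were to be named, and some of them are. Other genes were named after their values were seen. Members, lists and rules were chosen with earlier results of these data known. Annotation and sequences are from GENCODE M21 (mm10).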

Additional observations from a re-analysis of the deposited data

Results flagged for a closer look

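Rnf146 event 1 differed between the knockdowns themselves: Raver2 knockdown minus Setd2 knockdown was -0.631, and that difference passed the test (limma adjusted p = 0.0456). Both Raver2 hairpins gave inclusion below 0.01, against 0.616 and 0.651 in Setd2 knockdown. The difference missed the threshold when any 1 library was left out.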

How the results depend on the processing

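The number of events called, 3 in Raver2 knockdown, 2 in Setd2 knockdown and 1 between them, moved with the fit. Leaving out 1 library at a time gave 1 to 6, 1 to 7 and 1 to 3 events. The count over all 4658 events moved too: the 6 events came with 280 in all and the 7 with 279 in all, against 113 and 104 in the fits of all libraries. With only the events at 0.01 to 0.99 in all libraries, 0 events were called in each comparison (limma), since Rnf146 events 1 and 3 and Fbxl4 event 1 then fall out and Rnf41 events 2 and 5 had adjusted p of 0.137 and 0.157. For Setd2 knockdown the count was 4 on the logit scale, 1 with no variance trend and 0 with 4 libraries only, where 0 of 4658 events were called. Between the knockdowns it was 3 on the arcsine scale, 3 on the logit scale and 3 with 4 libraries only. The last 3 were Rnf32 events 1, 2 and 3, a single measurement, and Rnf146 event 1 was not among them. The 6 and the 7 events above likewise hold Rnf32 more than once. A replicate block that paired sh1 with sh1 and sh2 with sh2 gave 0 events here and 0 among all 4658, and Rnf146 event 1 then had an adjusted p of 0.547. Of 380 alternative values for 32 named differences, 322 kept their side of the threshold, 38 lost it, 20 gained it and 0 reversed sign. Most of the 322 were at differences that had not passed, and all 38 losses were at differences that had. Against Ctr the call held in 7 of 11 alternatives at Rnf146 event 1, 6 of 11 at its event 3 and 4 of 11 at Fbxl4 event 1. It held in 5 of 12 at each of Rnf41 events 2 and 5. Between the knockdowns Rnf146 event 1 held in 4 of 12. Each of these Rnf146 counts includes the logit scale, where both Raver2 knockdown libraries were first raised to 0.01 and so became equal. The logit pass therefore adds no support for Rnf146. Coverage is unknown for every value.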

Other observations

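Rnf112, a RING finger protein of the brain, also met the symbol rule but was listed in the Ctr libraries only, with inclusion of 0.000145 and 0.000250, and was not compared. Of the 119 events, 6 repeated the values of an earlier event of their gene, in Asb7, Rnf126, Rnf32, Trim26, Usp8 and Wwp1. An end of the scale (below 0.01 or above 0.99) was reached in at least 1 library by 63 events (52.9%), beside 57.1% of all events.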
